A study of Mus musculus with 12 samples.

Results

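Guanylate-binding proteins (Gbp genes) and immunity-related GTPases (Irg genes) are large GTP-hydrolysing proteins that mouse cells make in response to interferons. The 10 members described are Gbp2, Gbp3, Gbp5, Gbp6, Gbp7 and Gbp9, and the Irg genes Igtp (Irgm3), Irgm1, Irgm2 and Iigp1 (Irga6), taken from 48709 genes in the count files. They were chosen from the measured values of the same contrast, mimic against control, so their levels and differences are given as a description and carry no test. The libraries came from primary hippocampal cultures of CD1 mouse embryos at embryonic day 17, with the hippocampi of several embryos pooled before plating. At day 10 in vitro the cells received lipid nanoparticles with a miR-148a-3p mimic (6 libraries, called mimic) or with a negative control oligonucleotide (6 libraries, called control), and RNA was taken 48 h later. The methods also list the lipid carrier protein ApoE4 as added with the nanoparticles. Both groups therefore share the exposure to nanoparticles and ApoE4, and no library from cells without nanoparticles was analysed here. The protocols do not tie the 6 libraries of a group to separate cultures or litters, so error bars and p-values measure the spread between these libraries, which may be technical.

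In the textbook account, interferon-gamma binds its receptor, the Janus kinases Jak1 and Jak2 become active, and the response acts at a DNA element called GAS. Type I interferon signals reach the interferon-stimulated response element (ISRE) through a complex that holds Stat2 and Irf9, and Irf1 can also bind this element. Gbp and Irg proteins gather on the membranes of vacuoles that hold bacteria or parasites. Irgm1, Irgm2 and Igtp are the GMS subfamily and restrain the effector Irg proteins such as Iigp1, which load onto the vacuole. Gbp2 and Gbp5 are known for opening bacteria-containing vacuoles and for promoting inflammasome activation in macrophages.

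The sequences below show the miRNA that the mimic copies and the negative control listed for mimics, with the seed, bases 2 to 8, in capitals. The mature miR-148a-3p is given as RefSeq has it (GRCm38.p6, minus strand, chr6:51269829-51269850), and its sequence was the same as that of the mimic in the oligonucleotide list of the study. The negative control is from the same list. The sources call the control of these libraries an siRNA in one place and a scrambled RNA in another, so it is not certain that the listed oligonucleotide is the one these cells received.
miR-148a-3p: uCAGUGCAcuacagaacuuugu
negative control for mimics: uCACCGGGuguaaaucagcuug
A site was counted where a 3′ UTR matched bases 2 to 8, or bases 2 to 7 followed by an A. No member matched the full seed, bases 2 to 8, in the 3′ UTR of the transcript used, and only Irgm2 held a site of the shorter kind. In this site, with the match in capitals, 6 bases pair with bases 2 to 7 of the miRNA, an A follows, and base 8 is not matched. It started at base 1856 of a 3′ UTR of 2110 bases (GRCm38, plus strand, chr11:58222528-58222534).
Irgm2 site: tggccccaGCACTGAggaaactgt
Among 15082 tested genes with an annotated 3′ UTR, 21.9% held a site of either kind for the mimic and 14.9% a match to its full seed. For the listed control oligonucleotide 4.42% of these genes and no member held a site of either kind. A match is a description of the sequence and not a measured interaction.

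The promoters of the family show the elements named above. RefSeq promoters from 250 bases before to 50 bases after the start site were at hand for 7 of the 10 members (Gbp2, Gbp3, Gbp5, Gbp7, Igtp, Irgm1 and Irgm2). They were searched on both strands for the ISRE core GAAANNGAAA (TTTCNNTTTC on the other strand) and for the GAS motif TTCNNNGAA. An ISRE core was present in 7 of 7, against 3.99% of the 27025 genes in the table. A gene was counted when any of its listed promoters held the motif, and a second promoter of Gbp3 (chr3:142560106-142560405) held neither motif. A GAS motif was present in 4 of 7 (Gbp5, Gbp7, Igtp and Irgm2), against 9.55% of genes, and the same 4 held both motifs, against 0.614% of genes. Of the other interferon-inducible GTPases in the table, 4 of 7 held an ISRE core and 3 of 7 a GAS motif, so the motifs are not particular to the members. The stretches that hold the matches are printed 5′ to 3′ on the strand of the gene, with ISRE cores and GAS motifs in capitals (GRCm38.p6).
Gbp2, chr3:142620543-142620652: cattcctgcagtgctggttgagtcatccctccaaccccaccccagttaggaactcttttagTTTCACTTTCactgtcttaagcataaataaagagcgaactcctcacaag
Gbp3, chr3:142559924-142560033: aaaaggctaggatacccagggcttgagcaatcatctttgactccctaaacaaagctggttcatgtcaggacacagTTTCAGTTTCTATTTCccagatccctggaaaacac
Gbp5, chr3:142496754-142496893: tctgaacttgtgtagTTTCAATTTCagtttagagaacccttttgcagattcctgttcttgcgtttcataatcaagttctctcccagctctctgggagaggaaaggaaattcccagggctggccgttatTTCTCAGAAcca
Gbp7, chr3:142530216-142530325: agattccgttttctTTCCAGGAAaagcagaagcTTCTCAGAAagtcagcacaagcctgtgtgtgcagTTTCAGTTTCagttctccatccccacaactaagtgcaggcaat
Igtp, chr11:58199436-58199545: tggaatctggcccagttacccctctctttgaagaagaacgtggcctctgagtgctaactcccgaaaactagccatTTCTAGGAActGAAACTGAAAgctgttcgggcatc
Irgm1, chr11:48871431-48871540, minus strand: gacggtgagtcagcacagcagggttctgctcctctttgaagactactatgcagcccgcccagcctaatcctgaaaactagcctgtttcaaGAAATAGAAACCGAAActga
Irgm2, chr11:58214857-58214966: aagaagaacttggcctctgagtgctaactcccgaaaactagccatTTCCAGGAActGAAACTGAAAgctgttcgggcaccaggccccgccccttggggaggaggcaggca
In Gbp3 and Irgm1 a pair of ISRE cores overlapped. In Igtp and Irgm2 the GAS motif was followed by the ISRE core after 2 bases, and 73 of 75 bases around that pair were identical between these genes. Gbp5 had a further GAS motif at base -245, outside the stretch printed.

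**Figure D1:**
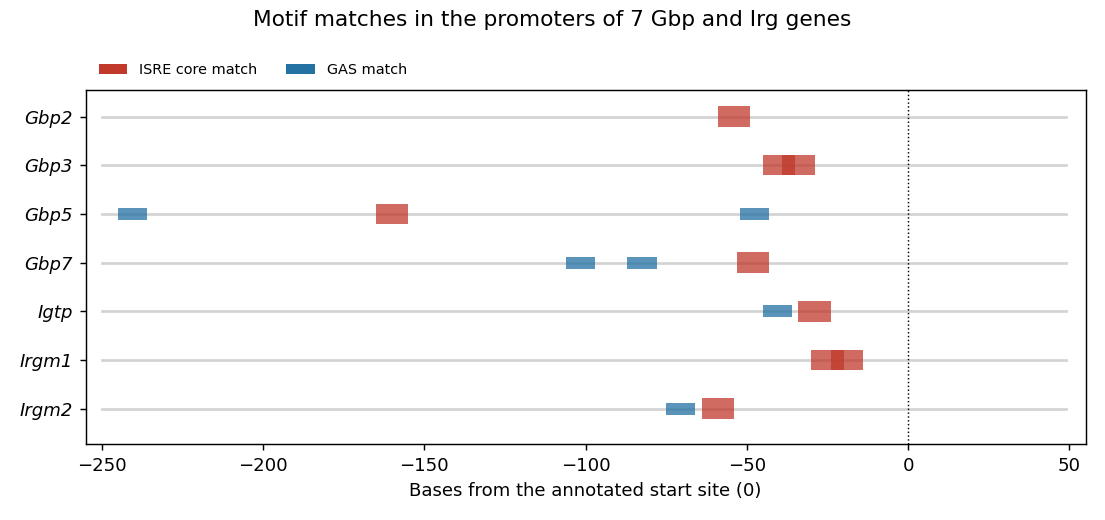
Position of motif matches (x axis, bases from the annotated start site at 0) in the promoters of 7 Gbp and Irg genes (rows). Wide bars are ISRE cores, present in all 7 rows, and narrow bars are GAS motifs, present in 4 rows.

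Each library held between 20018234 (control replicate 1) and 37149112 reads counted to genes. Neuron markers were present in every library and summed to 9551 to 10254 CPM (counts per 1000000 counted reads, scaled by TMM) in control and 9792 to 10166 CPM in mimic. Map2 stood at 2362 ± 185 and 2262 ± 44.9 CPM and Stmn2 at 1750 ± 52.5 and 1521 ± 36.0 CPM (control and mimic, SD, n = 6 each). The mature miRNA itself is not captured by poly(A) libraries and was not measured. Control replicate 1 stood apart from the rest on the second principal component (26.4), and values without it are given where it bears on a result. Control replicate 2 came next (10.7), control replicates 4, 5 and 6 lay at -11.3, -10.7 and -9.52, and the mimic libraries at -6.91 to 3.89.

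Across all genes, edgeR's quasi-likelihood test called 4182 of 18847 genes tested at an adjusted p under 0.05, which is 22.2%, with 10.7% lower and 11.5% higher in mimic. All 10 members passed the filter of at least 5 counts in at least 6 libraries. Of them, 8 were called lower and none higher, and since the members were chosen on this contrast nothing is read from that count. In all 10 the log2 fold change was below 0, from -1.71 (Gbp5) to -0.25 (Gbp7), with a median of -0.77 beside -0.012 over all genes tested. The summed level of the 10 members was 65.5 ± 11.1 CPM in control (49.6 to 78.3) and 39.8 ± 3.00 CPM in mimic (35.8 to 44.7), 60.8% of control. In 4 members (Gbp2, Gbp5, Igtp and Irgm1) every mimic library lay below every control library, a pattern found in 5.83% of all genes tested. In such mixed cultures, fewer cells of a type and less RNA per cell cannot be told apart.

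**Figure D2:**
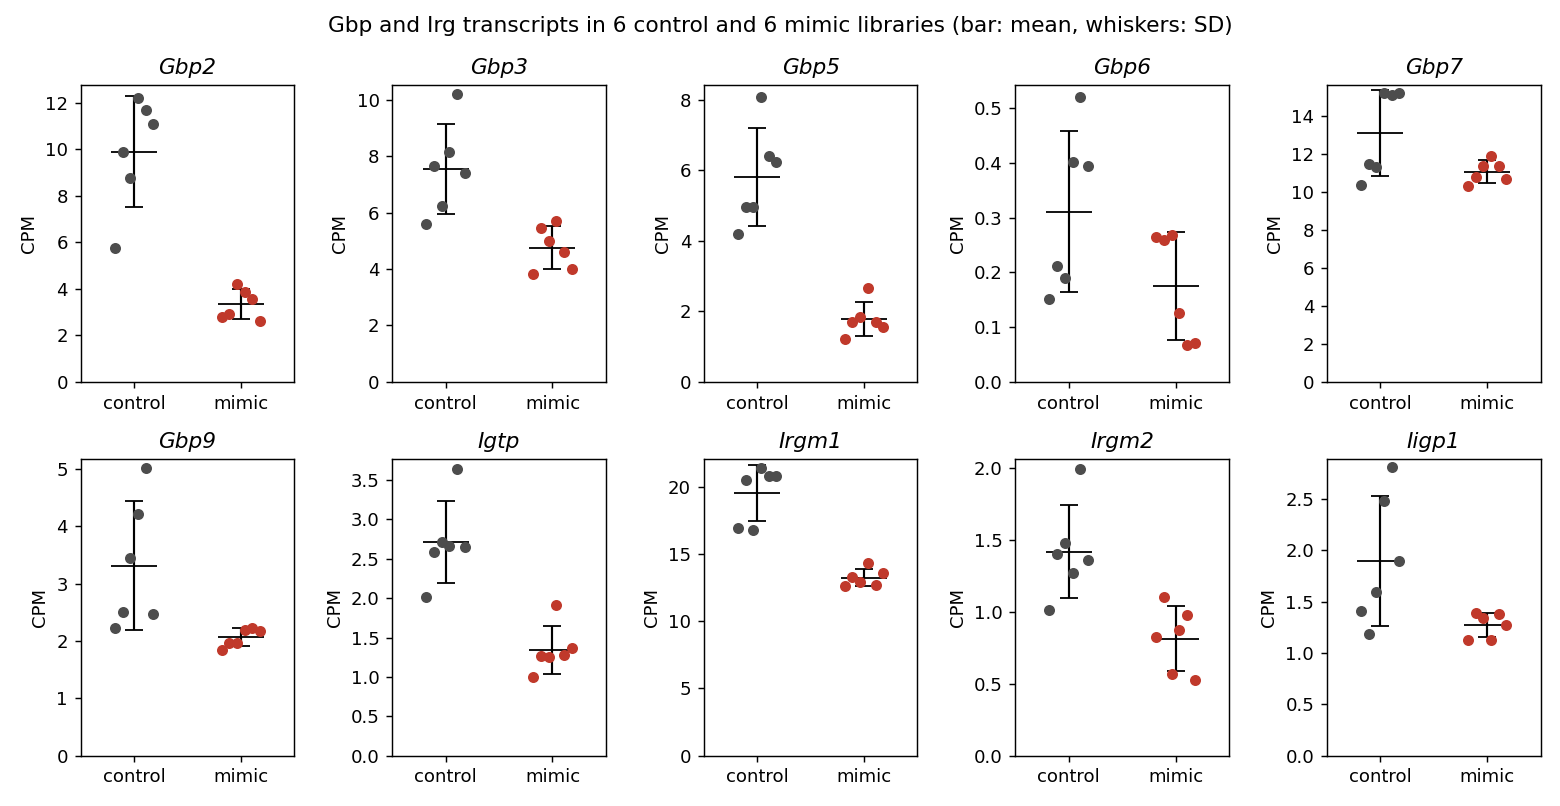
CPM (y axis, from 0, scaled per gene) of the 10 Gbp and Irg transcripts in 6 control and 6 mimic libraries, with 1 point per library, a bar at the mean and whiskers for the SD. In Gbp2, Gbp5, Igtp and Irgm1 the groups do not overlap, and in the other 6 genes they do.

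Gbp2 and Gbp5, the Gbp members with the best-known roles at vacuoles and inflammasomes, had the lowest ratios of mimic to control. Gbp2 ranged from 5.76 CPM over a median of 10.5 to 12.2 CPM in control and from 2.64 over 3.26 to 4.23 CPM in mimic. The lowest control library was replicate 1, and it was still above the highest mimic library. The means were 9.90 ± 2.39 and 3.34 ± 0.637 CPM, a log2 fold change of -1.57 (SE 0.16). Gbp5 ranged from 4.19 over 5.60 to 8.08 CPM in control and from 1.22 over 1.70 to 2.66 CPM in mimic, again without overlap. Its means were 5.81 ± 1.40 and 1.78 ± 0.480 CPM, with a log2 fold change of -1.71 (SE 0.18).

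Gbp3 and Gbp7 lie near Gbp2 and Gbp5 on chromosome 3 and differed less. Gbp3 ranged from 5.61 over 7.53 to 10.2 CPM in control and from 3.81 over 4.79 to 5.69 CPM in mimic. Of the 6 mimic libraries, 5 were below the lowest control library, and the log2 fold change was -0.67 (SE 0.13). Gbp7 ranged from 10.4 over 13.3 to 15.2 CPM in control and from 10.3 over 11.1 to 11.9 CPM in mimic. The control libraries of Gbp7 formed separate ranges, with replicates 1, 2 and 3 at 10.4, 11.5 and 11.3 CPM and replicates 4, 5 and 6 at 15.2, 15.1 and 15.2 CPM. Mimic libraries lay with the lower of these ranges, and the log2 fold change was -0.25 (SE 0.093), the smallest of the 10 members in size. Without control replicates 1 and 2, an alternative chosen after seeing the data, it was -0.35.

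Gbp9 and Gbp6 belong to the Gbp cluster on chromosome 5. Gbp9 ranged from 2.22 over 2.98 to 5.02 CPM in control and from 1.85 over 2.08 to 2.23 CPM in mimic. The spread was unequal, with a coefficient of variation of 33.8% in control and 7.45% in mimic, and the log2 fold change was -0.71 (SE 0.18). Gbp6 was close to the limit of detection, with 2 to 17 counts in a library and a mean of 7.42. Its levels were 0.311 ± 0.148 CPM in control and 0.176 ± 0.0987 CPM in mimic, with overlapping groups and a log2 fold change of -0.84 (SE 0.38).

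Among the Irg genes, Irgm1 had the highest level per kb (3.36 CPM per kb in control) and the smallest coefficient of variation (10.7% in control and 5.01% in mimic). It ranged from 16.8 over 20.6 to 21.4 CPM in control and from 12.6 over 13.1 to 14.3 CPM in mimic. The groups did not overlap, and the log2 fold change of -0.57 had the smallest error of the 10 members (SE 0.067). Igtp ranged from 2.02 over 2.65 to 3.64 CPM in control and from 0.993 over 1.27 to 1.91 CPM in mimic. These groups did not overlap either, although mimic replicate 4, at 1.91 CPM, came within a short distance of control replicate 1, at 2.02 CPM. The log2 fold change was -1.03 (SE 0.15).

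Irgm2, the third regulatory member, ranged from 1.01 over 1.38 to 1.99 CPM in control and from 0.527 over 0.852 to 1.10 CPM in mimic. Only mimic replicate 2, at 1.10 CPM, was above the lowest control library, and the log2 fold change was -0.82 (SE 0.19). Iigp1, the effector that the regulatory members hold in check, ranged from 1.19 over 1.74 to 2.81 CPM in control and from 1.13 over 1.30 to 1.39 CPM in mimic. Of its mimic libraries, 2 were below the lowest control library, and the log2 fold change was -0.60 (SE 0.18). The summed Irg members were 25.6 ± 3.05 CPM in control and 16.6 ± 0.945 CPM in mimic (65.1% of control), beside 40.0 ± 8.14 and 23.2 ± 2.29 CPM for the summed Gbp members (58.0%).

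**Figure D3:**
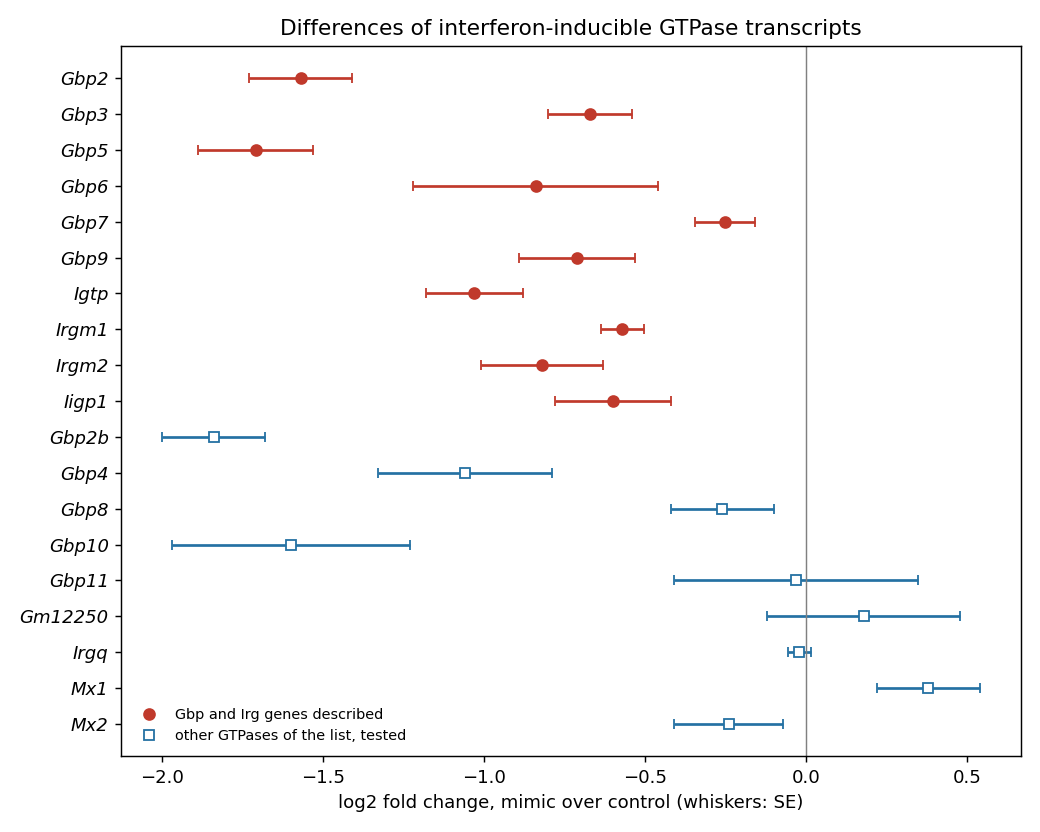
Log2 fold change of mimic over control (x axis) with its SE for the 10 Gbp and Irg genes described (filled circles) and the 9 other GTPases of the list that were tested (open squares). All 10 circles lie below 0, while the squares range from -1.84 (Gbp2b) to 0.38 (Mx1).

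Levels of the members were ranked against each other per kb of exon. In control libraries the order by CPM per kb was Gbp2 (3.94 ± 0.949), Irgm1 (3.36), Gbp7 (2.34), Gbp3 (2.31), Igtp (1.34), Gbp5 (0.875), Gbp9 (0.640), Irgm2 (0.384), Iigp1 (0.326) and Gbp6 (0.0523). Of the 9 neighbouring pairs in this order, only Irgm1 with Gbp7 and Iigp1 with Gbp6 had ranges that did not overlap. In mimic libraries the order was Irgm1 (2.27), Gbp7 (1.97), Gbp3 (1.46), Gbp2 (1.33 ± 0.253), Igtp (0.665), Gbp9 (0.399), Gbp5 (0.268), Irgm2 (0.220), Iigp1 (0.218) and Gbp6 (0.0295). Here the neighbours Gbp3 with Gbp2, Gbp9 with Gbp5, Gbp5 with Irgm2, and Irgm2 with Iigp1 overlapped. Gbp2 thus stood at rank 1 in control and rank 4 in mimic. As a share of the summed CPM per kb of the 10 genes, Gbp2 went from 25% ± 2.57 to 15% ± 2.05, Gbp5 from 5.60% ± 0.639 to 3.00% ± 0.528, Gbp7 from 15.1% ± 1.10 to 22.4% ± 0.952 and Irgm1 from 21.9% ± 2.34 to 25.9% ± 1.84.

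**Figure D4:**
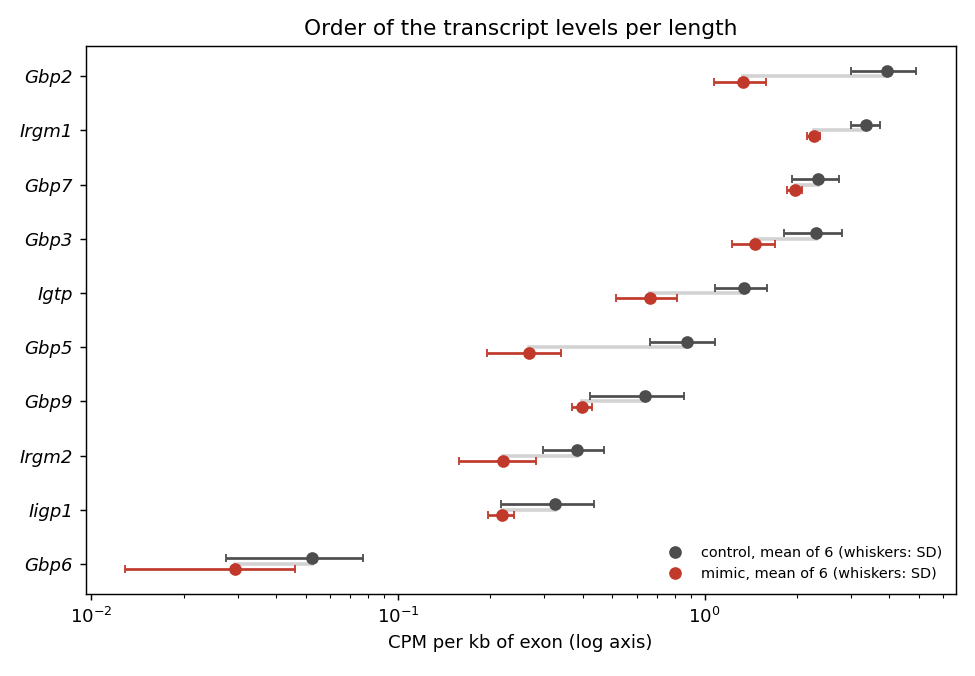
CPM per kb of exon (x axis, log scale) of the 10 genes (rows, in the order of the control means), with the mean of 6 libraries and the SD per group. Gbp2 leads in control at 3.94 and stands at 1.33 in mimic, below Irgm1, Gbp7 and Gbp3.

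Gbp and Irg genes arose by duplication, so a 50-base read can match several of them. In the GENCODE transcripts, Gbp6 shared 70.7% of its 50-base windows with other genes, among them the gene model Gm43302 (65.0%) and Gbp10 (45.9%), and Gm43302 also overlapped 29.0% of the Gbp6 exons. Igtp and Irgm2 shared 243 windows, 11.8% of those of Igtp and 6.79% of those of Irgm2, and their exons overlapped by 162 bases on the same strand. Gbp7 shared 12.7%, most of it with the pseudogene Gm43802 (10.5%), and Gbp9 shared 8.05% with genes of its cluster. The remaining members shared less, at 3.75% for Gbp3, 2.03% for Gbp2, 1.69% for Iigp1, 1.44% for Gbp5 and 0.379% for Irgm1. Gbp6 counts are therefore uncertain, and those of Igtp and Irgm2 are not fully separate. In the mm10 annotation the Gbp members on chromosome 3 are Gbp5 (142493978 to 142522344), Gbp7 (142530342 to 142550149), Gbp3 (142560026 to 142573209) and Gbp2 (142620602 to 142638008), all on the plus strand. Gbp2b, which is no member, lies between Gbp3 and Gbp2. Gbp9 (105077630 to 105139539) and Gbp6 (105270702 to 105293698) are on the minus strand of chromosome 5. Irgm1 (48861968 to 48871683, minus strand), Igtp (58199556 to 58207591, plus strand) and Irgm2 (58199618 to 58222782, plus strand) are on chromosome 11.

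The members also varied together among libraries of the same group, a spread that does not use the contrast. After the group mean was removed from log2 CPM, the 7 members averaging 50 counts or more (Gbp2, Gbp3, Gbp5, Gbp7, Gbp9, Igtp and Irgm1) correlated positively in 21 of 21 pairs over 12 libraries. The median Pearson r was 0.73, from 0.38 (Gbp9 with Irgm1) to 0.83 (Gbp2 with Gbp7). Without control replicate 1 the pairs were still all positive, with a median of 0.62 and a range of 0.12 to 0.75. The points share the library, its depth and its cell composition, and correlations among genes are wide in 12 libraries. Over 13506 genes averaging 50 counts or more, the r with the mean standardized deviation of the 7 members ran from -0.79 at the 5th percentile to 0.75 at the 95th. Against the mean of the other members, r was 0.86 for Gbp3, Gbp5 and Gbp7, 0.82 for Gbp2, 0.77 for Igtp, 0.76 for Irgm1 and 0.62 for Gbp9, and without control replicate 1 it ran from 0.44 (Gbp9) to 0.86 (Gbp5). The mean deviation was lowest in control replicate 1 (-1.74 SD) and mimic replicate 1 (-0.95 SD) and highest in control replicate 5 (1.34 SD) and mimic replicate 4 (1.10 SD). Control replicates 2 and 3 were also below 0 (-0.26 and -0.65 SD), and control replicates 4 and 6 above it (1.02 and 0.30 SD). Leaving out control replicate 1 alone does not remove that split.

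Among the 5 of the 13506 genes with the pattern most like that of the 7 members were 4930430F08Rik (Pearson r = 0.93, Spearman rho = 0.76 over 12 libraries), Rbm43 (0.92, 0.83), Ptprd (0.92, 0.92) and Unc5d (0.91, 0.95). Without control replicate 1 their r was 0.86, 0.86, 0.87 and 0.87, which put them at ranks 11, 16, 10 and 9, so none of the 4 was among the 5 most alike without that library. Markers of cell types also moved with the members within groups. Among neuron markers, r was 0.87 for Stmn2 (0.77 without control replicate 1), -0.84 for Slc17a7 (-0.70), -0.80 for Syn1 (-0.66) and -0.79 for Rbfox3 (-0.74). Among astrocyte markers it ran from -0.76 for Aldh1l1 (-0.53) and Fgfr3 (-0.54) to 0.73 for Aqp4 (0.62). Interferon targets of the lists below ran from -0.81 for Psmb10 (-0.65) to 0.90 for Eif2ak2 (0.86) and Parp14 (0.85). Neuron and astrocyte markers thus moved in both directions, and their part in the shared spread of the members was not tested.

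**Figure D5:**
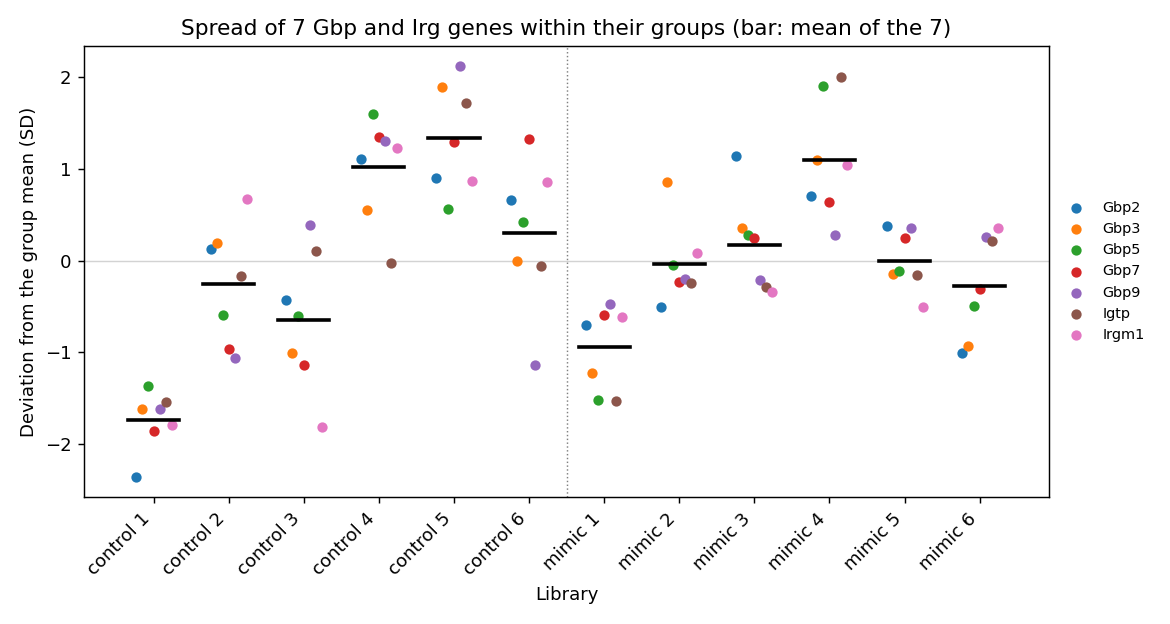
Deviation of log2 CPM from the group mean, in units of the SD of that gene's own deviations over 12 libraries (y axis), for 7 Gbp and Irg genes in 6 control and 6 mimic libraries (x axis), with 1 point per gene and a bar at the mean of the 7. The bar is lowest in control replicate 1 at -1.74 SD and highest in control replicate 5 at 1.34 SD.

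The other interferon-inducible GTPases that are no members were tested in the same fit. This list and the lists below were also chosen with earlier results of these data known, so their counts and p-values are descriptions. Of 17 listed, 9 passed the filter, 3 were called lower and none higher. Of all genes tested, 10.7% were called lower and 11.5% higher. The median log2 fold change of the list was -0.24, beside -0.012 over all genes tested. Gbp2b, the neighbour of Gbp2, fell from 1.24 ± 0.161 to 0.348 ± 0.0560 CPM without overlap (log2 fold change -1.84, SE 0.16, edgeR adjusted p = 2.24e-07, 23.5 counts on average). Gbp4 fell by 1.06 log2 units (SE 0.27, adjusted p = 0.00718 by edgeR), and Gbp10 by 1.60 log2 units (SE 0.37, adjusted p = 0.00413 by edgeR). Gbp10 had 7.58 counts on average and shared 84.1% of its windows with other genes. It fell below the count filter without control replicate 2, 3, 4, 5 or 6 or mimic replicate 5, and DESeq2 gave it no adjusted p, which leaves 2 genes called lower. Gbp8 (-0.26), Gbp11 (-0.03), Gm12250 (0.18), Irgq (-0.02), Mx1 (0.38) and Mx2 (-0.24) were not called, with edgeR adjusted p from 0.0975 (Mx1) to 0.974 (Gbp11). Without control replicate 1 or mimic replicate 5, Mx1 was called higher (0.45 and 0.47, edgeR adjusted p = 0.0452 and 0.0317). Irgq, an Irg-like gene that is not known as an interferon target, was at 162 ± 8.12 CPM in control and 160 ± 4.50 CPM in mimic. Tgtp1 and Gm8979 had no count in any library, which does not show that they were absent. They shared 81.2% and 85.8% of their windows with other genes.

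Of 24 genes of interferon signalling, 21 were tested, 8 were called lower and 1 (Irf2) higher. Over all genes tested these shares were 10.7% and 11.5%. The median log2 fold change of the list was -0.11, beside -0.012 over all genes tested. The receptor chains Ifngr1 (0.01, SE 0.053), Ifngr2 (-0.02, SE 0.029), Ifnar1 (-0.01, SE 0.03) and Ifnar2 (-0.11, SE 0.056) were not called, nor was the kinase Jak2 (-0.01, SE 0.038). Jak1, the kinase common to both interferon types, fell slightly, from 273 ± 7.56 to 254 ± 6.27 CPM (log2 fold change -0.11, edgeR adjusted p = 0.0166). Stat2 fell by 0.23 in log2 CPM (edgeR adjusted p = 0.000147) and Irf9 by 0.21 (0.0121). Irf1, a transcription factor that binds the ISRE, fell from 13.4 ± 0.767 to 9.36 ± 1.16 CPM without overlap (-0.52, SE 0.074, edgeR adjusted p = 5.07e-05).

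The largest change of that list was in Nlrc5, the transactivator of MHC class I genes, at -1.0 log2 units (SE 0.069, adjusted p = 1.48e-08 by edgeR). Usp18, a brake on type I interferon signalling, fell by 0.70 (SE 0.16, edgeR adjusted p = 0.00343). The ligand genes were near 0, with means of 0.917 counts for Ifng and 0.250 for Ifnb1, and were not tested. A match to the full seed was present in the 3′ UTR of Ifnar1, Stat2 and Ciita, only the shorter kind of site in Irf9, and neither kind in any of Irf1, Nlrc5, Jak1 and Jak2.

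Of 19 interferon-gamma targets tested, 11 were called lower and 1 (Ly6e) higher, with a median of -0.29. Over all genes tested, 10.7% were lower and 11.5% higher, with a median of -0.012. Psmb8, an immunoproteasome subunit, fell by 1.29 (log2 fold change, SE 0.097, edgeR adjusted p = 4.48e-08), the chemokine Cxcl10 by 0.93 (SE 0.15, adjusted p = 0.000153) and the MHC class I gene H2-K1 by 0.82 (SE 0.079, adjusted p = 1.19e-06). Exons of Cxcl10 overlap 133 bases of Art3 on the opposite strand, which had 15.2 counts on average, and H2-K1 belongs to a family of similar genes. Of 21 type I interferon targets tested, 15 were called lower and 1 higher, with a median of -0.70, beside the same shares and median over all genes. Oasl2 fell by 1.31 (SE 0.2, adjusted p = 0.000154) and the RNA sensor gene Ddx58 by 0.86 (SE 0.11, adjusted p = 3.37e-05). Rsad2, which encodes the antiviral enzyme viperin, rose from 3.62 ± 0.407 to 6.72 ± 0.873 CPM without overlap (0.88, SE 0.096, edgeR adjusted p = 3.11e-06).

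The last list held the autophagy conjugation genes that direct Gbp and Irg proteins to vacuoles, together with inflammasome genes. Of its 17 genes tested, 3 were called lower and none higher, with a median of -0.03. With 10.7% of all genes tested called lower, this count is near the background and says nothing about the list. Atg12 fell by 0.36 (SE 0.049, edgeR adjusted p = 4.07e-05) and Map1lc3b by 0.12 (SE 0.029, adjusted p = 0.00454). Casp4, the mouse caspase-11 that acts with Gbp proteins against lipopolysaccharide and has only 22.2 counts on average, fell by 1.42 (SE 0.29, adjusted p = 0.00135).

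Markers of the other cell types were set beside these values, because glia and vascular cells also make Gbp and Irg proteins. Of all genes tested, 10.7% were called lower and 11.5% higher. Of the 14 neuron markers, 4 were called lower (Tubb3, Slc17a6, Neurod2 and Stmn2) and 2 higher (Gad2 and Camk2a). Summed microglia markers were 32.3 to 38.7 CPM in control and 30.9 to 60.5 CPM in mimic, with 3 of 15 called lower (the complement genes C1qa, C1qb and C1qc) and none higher. Cd68 was not called. The highest sum was that of mimic replicate 2, and the other mimic libraries lay at 30.9 to 41.3 CPM. Summed astrocyte markers were 5397 to 5930 CPM in control and 6641 to 7082 CPM in mimic, with 9 of 12 called higher, among them Slc1a2 and Slc1a3, and 1 (Gfap) lower. Summed oligodendrocyte lineage markers were 428 to 724 and 810 to 1003 CPM, with 5 of 9 higher, among them Olig1 and Olig2, and 1 (Mog) lower. Summed endothelial markers were 49.2 to 70.9 and 30.4 to 53.1 CPM, with 2 of 8 tested called lower (Kdr and Flt1). Kdr alone was at 45.2 to 66.5 and 26.6 to 49.8 CPM, so these sums are mostly Kdr. The log2 fold changes of the 8 ran from -0.79 to 0.46. Eng was not called in the full set of libraries but was lower without mimic replicate 4 (-0.52, edgeR adjusted p = 0.0384), and Cldn5 had no count in control and 1 count in mimic. Summed mesenchymal markers were 205 to 274 and 107 to 234 CPM, with 2 of 10 lower (Acta2 and Tagln) and 1 higher (Rgs5), and Col1a1 and Col1a2 were not called. Without mimic replicate 4 both were lower (-0.74 and -0.69, edgeR adjusted p = 0.00291 and 0.0137). The microglia, endothelial and mesenchymal counts of called markers are near the share over all genes and say nothing about those lists. The part of the marker differences in the levels of the Gbp and Irg genes was not tested.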

How the data were processed

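The authors sequenced poly(A) RNA as 50 bp single-end reads, aligned it to mm10 with STAR 2.5.2b and counted reads per gene with featureCounts (Subread 1.5.1). Strand setting and treatment of multi-mapping reads are not given in the sources used here. The deposited raw counts of 12 libraries were used for all main values. The deposited normalized table (unit signal: counts divided by 1 factor per library, 18289 genes) served for 1 alternative. Ensembl IDs were named with GENCODE M21 (48349 of 48709).

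Genes with at least 5 counts in 6 libraries were tested with edgeR 4.0.16 (quasi-likelihood F-test, TMM, two-sided, no covariate) and Benjamini-Hochberg adjustment over all genes. CPM used TMM-scaled library sizes, and log2 CPM a prior count of 2. DESeq2 1.42.0 and limma 3.58.1 were alternatives. Members and gene lists were chosen with earlier results of these data known. Named were all members, the other GTPases tested, core signalling genes, per list the 3 called genes with the largest change and 50 counts or more, the 5 genes most like the members within groups, and the 2 markers per cell type with the highest CPM, not scaled by length. Irf2, Ly6e, Ciita, Casp4, Ifnb1, Tgtp1, Gm8979, Art3, Gfap, C1qa, C1qb, C1qc, Mog, Flt1, Cldn5, Acta2, Tagln, Rgs5, Tubb3, Slc17a6, Neurod2, Gad2, Camk2a, Slc17a7, Syn1, Rbfox3, Aldh1l1, Fgfr3, Aqp4, Psmb10, Eif2ak2 and Parp14 were named after their values were seen. A few genes that the rule picks are left out of the text. Promoters and miRNAs were taken from RefSeq (GRCm38.p6). Windows were matched to GENCODE transcripts, in place of the planned genome. Computed with R 4.3.3 and Python 3.11.15.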

Additional observations from a re-analysis of the deposited data

Results flagged for a closer look

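In the members, none of 20 groups of 6 libraries (10 genes in control and in mimic) had a library that stood apart by Dixon's test at its 95% critical value. Among 57 quantities examined (114 groups), 8 such libraries were found, and chance flags about 1 in 20 groups. In control, a library stood apart from the other 5 in Jak2 (replicate 2, 53.5 CPM), H2-K1 (replicate 2, 88.9 CPM), Usp18 (replicate 5, 4.53 CPM), Oasl2 (replicate 5, 6.33 CPM) and Olig1 (replicate 1, 594 CPM). In mimic, this was so in Oasl2 (replicate 4, 2.16 CPM), Map1lc3b (replicate 4, 114 CPM) and Cd68 (replicate 2, 12.2 CPM). Control replicate 5 and mimic replicate 4, the libraries that stood apart in Oasl2, also had the highest mean deviation of the Gbp and Irg genes in their groups.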

How the results depend on the processing

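The members were chosen on this contrast in these libraries, so the values below describe the processing and support nothing about the direction. The number of members called lower was 8 with the settings reported, 6 to 10 under other settings (DESeq2, median-ratio size factors, filters, replicate block, limma-voom, limma on the deposited table, and without control replicates 1 and 2) and 7 to 9 when 1 library was left out, with a median log2 fold change of -0.90 to -0.70 and -0.84 to -0.59. Gbp7 was called without control replicate 1 or 3, Gbp7 and Gbp6 were called without control replicates 1 and 2, Iigp1 was not called without control replicate 4 or 5 or mimic replicate 1 or 4 or on the deposited table, and Gbp6, Irgm2 and Iigp1 were not tested at a mean of 50 counts. Replicate numbers did not pair the libraries (correlations of -0.152 to 0.294 and 0 of 6 numbers closest to their own). With the replicate block, 1709 genes were lower and 1950 higher, 8 members were lower, the median was -0.74, and the count of signalling genes called higher went from 1 to 0. Leaving out 1 library gave 1612 to 2453 genes lower and 1880 to 2697 higher. It left 0 to 1 genes called higher in the lists of signalling genes (0 without control replicate 6), other GTPases (1 without control replicate 1 or mimic replicate 5) and loading and inflammasome partners (1 without mimic replicate 4). The lists were recounted only with DESeq2, the replicate block, 1 library left out, and without control replicates 1 and 2, and no other count of a list moved by over 1.5 times there. The planned search of the whole genome for 50-base windows was not run. Gbp6, with 2 to 17 counts a library, is the member that depth limits most.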
